A study of Mus musculus with 6 samples.

Results

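The SR splicing factor family was examined in RNA-seq of STRA8+ germ cells from mouse testis, in control cells and in *Srsf1* conditional knockout (cKO) cells. The 10 genes examined, *Srsf1*, *Srsf2*, *Srsf3*, *Srsf4*, *Srsf5*, *Srsf6*, *Srsf7*, *Srsf9*, *Srsf10* and *Srsf11*, were selected by gene name among the 54532 genes of the deposited table. The control group had 3 libraries with the genotype Cre, and the cKO group had 3 libraries with the genotype *Srsf1* knockout. Neither the Cre driver, the deleted part of *Srsf1* nor the age of the mice was given in the sources used here. The labels do not say that the libraries of a group came from separate mice, so p-values measure the spread between these libraries, which may be technical. Levels are given in FPKM, fragments scaled to gene length and to the size of the library, and total fragments per library ranged from 15364511 to 17310353 in the control group and from 14447887 to 15326722 in the cKO group.

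SR proteins bind exonic sequence through an RNA recognition motif and recruit the spliceosome through a tail rich in arginine and serine, the RS domain. Kinases of the SRPK and CLK families phosphorylate this tail, and several SR proteins also act in mRNA export and translation. SR proteins are known to limit their own level by splicing that makes part of their transcripts targets of nonsense-mediated decay (NMD), in which transcripts with an early stop codon are degraded.

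*Srsf1* and *Srsf9* are the members on which the results turn, and their coding sequences were compared first. The *Srsf1* transcript used here (plus strand of chromosome 11 of GRCm38) has 248 codons, and that of *Srsf9* (plus strand of chromosome 5) has 222 codons. In a global alignment, 463 bases were identical, 69.5% of the shorter sequence, against 53.1 to 63.7% between *Srsf1* and each of the other 8 members. The sequences of the last 150 coding bases are shown because this part of both genes encodes arginine and serine codons side by side. Capitals mark adjacent codons of which one encodes arginine and the other serine. The *Srsf1* stretch lies in exon 4, at chr11:88049454-88049603. The *Srsf9* stretch lies in 2 exons between 115332281 and 115332716 on chromosome 5. Both were read 5′ to 3′ from the GENCODE M21 annotation.
Srsf1: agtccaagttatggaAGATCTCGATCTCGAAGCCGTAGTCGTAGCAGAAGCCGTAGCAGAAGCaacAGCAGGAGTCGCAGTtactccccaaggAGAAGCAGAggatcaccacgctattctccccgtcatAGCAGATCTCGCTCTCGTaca
Srsf9: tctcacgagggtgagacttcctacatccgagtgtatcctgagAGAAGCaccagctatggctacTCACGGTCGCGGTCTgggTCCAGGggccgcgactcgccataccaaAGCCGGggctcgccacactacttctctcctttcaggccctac

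The *Srsf1* stretch held 26 such pairs of neighbouring codons and the *Srsf9* stretch held 7. Over the whole coding sequence, *Srsf1* had 31 pairs, or 12.5 per 100 codons, and *Srsf9* had 9, or 4.05 per 100 codons. *Srsf2* had 23.5 per 100 codons, so *Srsf9* had the lowest density of the 10 members and *Srsf2* the highest.

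The libraries were checked against germ cell markers. *Stra8*, the gene for which the cells were named, was at 244.4 ± 20.3 FPKM in the control group and at 272.2 ± 36.4 FPKM in the cKO group (SD, n = 3 each), and its difference was not called (adjusted p = 0.36, limma). Of 10 pachytene spermatocyte markers, 9 were lower in the cKO libraries, and *Mybl1*, named after its value was seen, was the exception. Their summed level was 719 to 887 FPKM in control and 116 to 134 FPKM in cKO libraries. All 10 spermatid markers were lower, with sums of 2560, 8440 and 2514 FPKM in control replicates 1, 2 and 3 and of 5.15 to 6.08 FPKM in cKO libraries. Control replicate 2 therefore stood apart from the other control libraries in spermatid RNA. The summed level of 10 early meiotic markers was 795 to 1080 FPKM in control and 818 to 1077 FPKM in cKO libraries. *Spo11* and *Rec8*, both of early meiosis, were called lower and were chosen for mention after their values were seen. Of 19 markers of germ cells and of undifferentiated and differentiating spermatogonia, 13 were not called, 2 were higher (*Dazl* and *Ret*, 10.5%) and 4 were lower (*Ddx4*, *Mael*, *Id4* and *Dmrtb1*, 21.1%), against 11.8% and 22.2% of all genes tested. These 6 were also named after their values were seen. The sums of 7 Sertoli cell markers overlapped between groups (57.4 to 86.2 FPKM in control and 48.3 to 119 FPKM in cKO libraries), and *Rhox5* was the one Sertoli marker called, as higher. Leydig, peritubular, and macrophage and blood markers summed to at most 13.98 FPKM per list in any library. The sums of the 5 peritubular cell markers did not overlap between groups, at 3.69, 6.44 and 4.13 FPKM in control and at 8.16, 7.04 and 7.35 FPKM in cKO libraries. Neither *Acta2* nor *Tagln*, the peritubular markers high enough to test, was called (adjusted p = 0.19 and 0.055), and the part of these cells in the results was not tested. *Insl3*, a Leydig cell marker named after its values were seen, was listed at 0 in control replicate 3 and reached 9.74 FPKM in control replicate 2.

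*Srsf1*, the targeted gene (ENSMUSG00000018379, chr11:88047373-88053755), encodes the best known SR protein, which acts in constitutive and alternative splicing. It was at 84.7, 45.2 and 51.9 FPKM in control replicates 1, 2 and 3. In cKO replicates 1, 2 and 3 it was at 5.08, 4.94 and 5.17 FPKM. All cKO libraries lay below all control libraries, and the lowest control value was 8.73 times the highest cKO value. The mean fell from 60.6 ± 21.1 to 5.07 ± 0.118 FPKM (SD, n = 3 each), or to 8.36% of control. The log2 fold change of FPKM + 1 was -3.29 ± 0.22 (SE; 95% interval -3.80 to -2.78; adjusted p = 5.65e-05, limma). The cKO values rested on 413 to 456 fragments per library and the control values on 3954 to 7965. The labelled genotype and the level of the gene therefore went the same way in each library.

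The control libraries differed in *Srsf1* more than in any other member. Control replicate 1 was 1.87 times control replicate 2 and 1.63 times control replicate 3, and the coefficient of variation was 34.9%. Over the other 9 members this coefficient was 5.89 to 13.6% in the control group. Without control replicate 1, the log2 fold change of *Srsf1* was -3.03 (adjusted p = 5.61e-05), so the call did not rest on that library. Among the 15451 genes tested, 396 had a more negative log2 fold change than *Srsf1*. The pachytene and spermatid markers were lower in the same libraries as *Srsf1*, and their part in the fall of *Srsf1* was not tested. In bulk RNA, fewer cells of a type and less RNA per cell cannot be told apart.

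**Figure D1:**
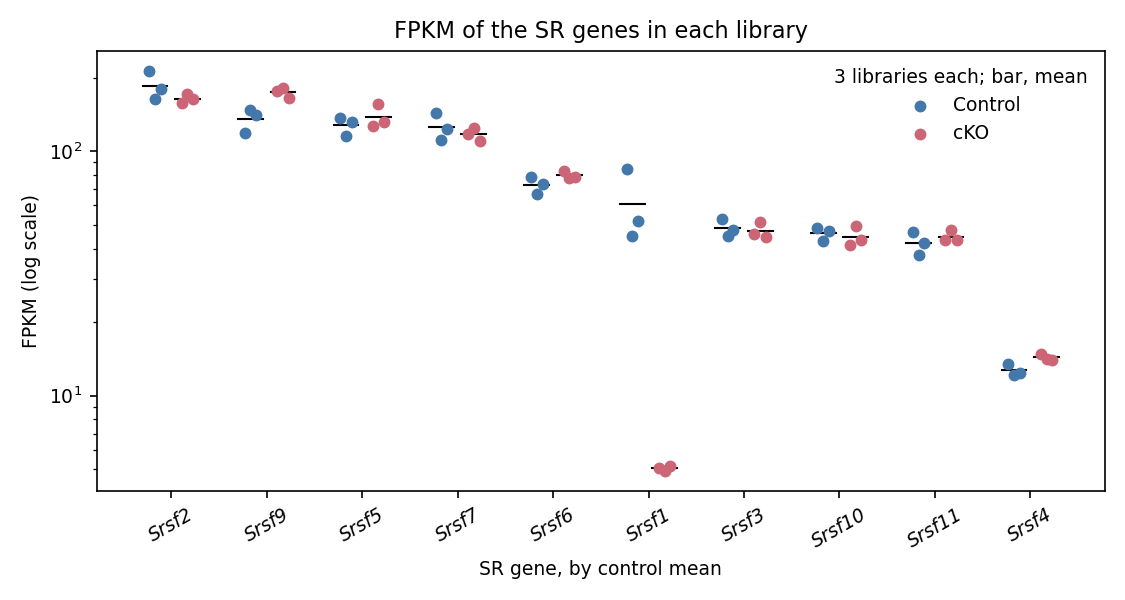
FPKM (log scale) of the 10 SR genes, ordered by control mean, in the 3 control (blue) and 3 cKO (red) libraries, with bars at the group means. The *Srsf1* points fall from 45.2 to 84.7 FPKM in control to about 5 FPKM in cKO libraries, and the cKO points of *Srsf9* lie above all of its control points.

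*Srsf9* (ENSMUSG00000029538, chr5:115327177-115333080) encodes an SR protein with a short RS domain, and was the member whose coding sequence was most like that of *Srsf1*. It was at 119.3, 146.9 and 140.1 FPKM in control replicates 1, 2 and 3. In cKO replicates 1, 2 and 3 it was at 177.0, 181.3 and 165.7 FPKM. All 3 cKO libraries lay above all 3 control libraries, and the lowest cKO value was 1.13 times the highest control value. The mean rose from 135.5 ± 14.4 to 174.6 ± 8.07 FPKM (SD, n = 3 each), or by 28.9%. The log2 fold change was 0.37 ± 0.094 (SE; 95% interval 0.15 to 0.59; adjusted p = 0.023, limma). Every library held between 3249 and 4597 *Srsf9* fragments, and all 100-base windows of its transcripts occurred in no other annotated gene.

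The call of *Srsf9* was close to the threshold. It passed in 8 of the 14 alternative settings that changed the values, with adjusted p between 0.0083 and 0.070 and a log2 fold change between 0.28 and 0.45. The remaining alternative, median-of-ratios scaling, had equal factors in all libraries and gave equal numbers of calls. Leaving out control replicate 1, control replicate 3, cKO replicate 1 or cKO replicate 2 took the adjusted p to 0.054, 0.051, 0.070 and 0.064. Without control replicate 2, the library with the highest spermatid marker sum, the log2 fold change was 0.43 (adjusted p = 0.019). Of the genes called higher in the cKO group, 75% had a larger change than *Srsf9*. The lower pachytene and spermatid marker levels accompanied the rise of *Srsf9* too, and their part in it was not tested.

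*Srsf9* was also the member that ran against the others among the control libraries. The other 9 members, *Srsf1* included, were highest in control replicate 1 and lowest in control replicate 2, whereas *Srsf9* was lowest in control replicate 1 and highest in control replicate 2. Neither order was particular to the family. Summed kinases and import factors of SR proteins had the first (129.2, 115.3 and 125.6 FPKM in control replicates 1, 2 and 3). Summed genes of the hnRNP A/B and D type had that of *Srsf9* (597.2, 633.8 and 614.1 FPKM). The share of all genes with either order was not computed. In the cKO group, *Srsf9* was highest in replicate 2 and lowest in replicate 3.

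Of the 10 members, 1 was called higher (*Srsf9*) and 1 lower (*Srsf1*) in the cKO group. Among all genes tested, 11.8% were called higher and 22.2% were called lower, so the member counts were near or below the background. *Srsf1* was the targeted gene, and no other member was called lower. Under quantile normalization 4856 genes were called higher and 2666 lower, in place of 1821 and 3437. In *Srsf4* and *Srsf9*, all 3 cKO libraries were above all 3 control libraries, a pattern found in 21.8% of all genes tested. All 3 cKO libraries were below all 3 control libraries in *Srsf1* alone, against 28.6% of all genes tested. Across the 9 members other than *Srsf1*, the log2 fold change ran from -0.17 to 0.37 with a median of 0.087, and 5 were above 0. The median over all genes tested was -0.0082, and 49.2% of them were above 0.

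**Figure D2:**
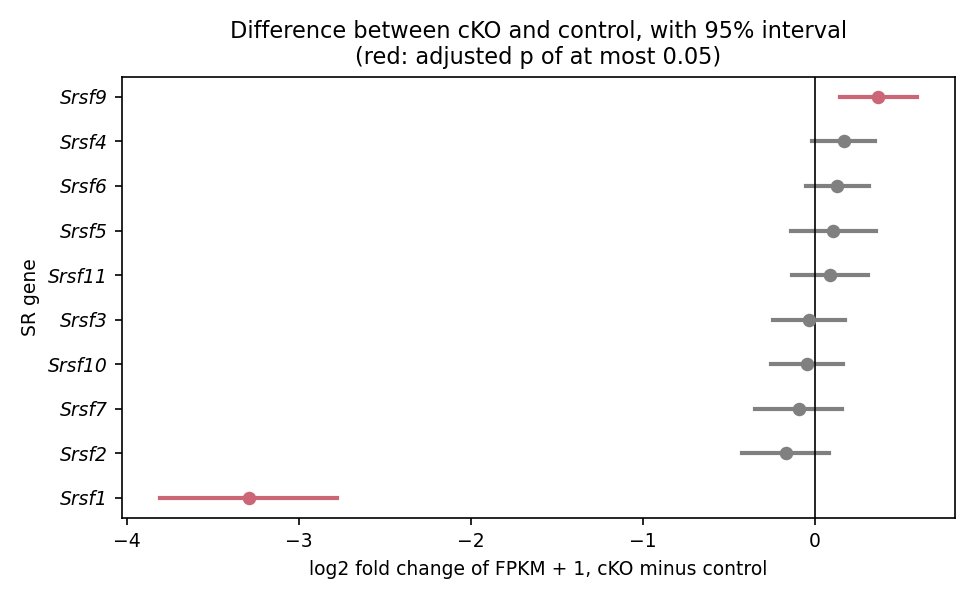
Log2 fold change of FPKM + 1, cKO minus control, of each SR gene from limma, with 95% intervals (3 libraries a group). *Srsf1* at -3.29 and *Srsf9* at 0.37 are in red, with adjusted p of at most 0.05, and the intervals of the 8 genes in grey include 0.

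The other 8 members did not pass the test, with adjusted p of 0.14 to 0.79 and unadjusted p of at least 0.066. Their 95% intervals together ran from -0.42 to 0.36 on the log2 scale, which is 0.746-fold to 1.28-fold. A difference beyond these bounds was outside the interval of each of these genes, and the interval of each gene is given with its values.

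*Srsf4*, *Srsf5* and *Srsf6* encode SR proteins with a pair of RNA recognition motifs. *Srsf4* (chr4:131873617-131901706), the lowest expressed member in control libraries, was at 13.5, 12.1 and 12.4 FPKM in control and at 14.9, 14.2 and 14.02 FPKM in cKO libraries. The groups did not overlap, although the lowest cKO value was only 1.04 times the highest control value. Its log2 fold change was 0.17 (95% interval -0.015 to 0.35; adjusted p = 0.14), and under quantile normalization it was 0.33 (adjusted p = 0.016). Of its exonic bases, 43.0% are shared with *Gm12992* on the opposite strand, which was listed at 0.496 to 1.10 FPKM. The strandedness of the counting was not given, so reads of these genes could not be told apart.

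*Srsf6* (chr2:162931528-162937121) was at 78.1, 66.6 and 73.7 FPKM in control and at 82.9, 77.6 and 78.4 FPKM in cKO libraries. Its groups overlapped by 1 control library, and the log2 fold change was 0.13 (95% interval -0.055 to 0.32; adjusted p = 0.24). *Srsf5* (chr12:80945504-80950507) was at 137.0, 115.6 and 131.2 FPKM in control and at 126.4, 155.6 and 132.3 FPKM in cKO libraries. The cKO replicate 2 value stood above the rest, and the log2 fold change was 0.11 (95% interval -0.14 to 0.36; adjusted p = 0.47).

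*Srsf2* (chr11:116849901-116853094) encodes an SR protein with a single RNA recognition motif and was the highest member in the control group. It was at 213.5, 164.1 and 179.8 FPKM in control and at 157.1, 172.0 and 163.1 FPKM in cKO libraries. Control replicate 2 lay within the cKO range. The log2 fold change was -0.17 (95% interval -0.42 to 0.082; adjusted p = 0.26). The gene shares 460 exonic bases with *Mettl23* and 288 with *Mfsd11*, both on the opposite strand and at 5.97 to 10.2 FPKM.

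*Srsf3* and *Srsf7* encode small SR proteins that, like SRSF1, are known adaptors of the mRNA export receptor NXF1. *Srsf3* (chr17:29032628-29043373) was at 52.6, 45.0 and 47.7 FPKM in control and at 45.8, 51.4 and 44.5 FPKM in cKO libraries. *Srsf7* (chr17:80200089-80207305) was at 144.0, 111.3 and 123.1 FPKM in control and at 118.0, 124.6 and 110.0 FPKM in cKO libraries. The groups overlapped in both genes. The log2 fold change of *Srsf3* was -0.034 (95% interval -0.24 to 0.18; adjusted p = 0.79), and it lay on the other side of the all-gene median when control replicate 1 or cKO replicate 3 was left out. That of *Srsf7* was -0.094 (95% interval -0.35 to 0.16; adjusted p = 0.53), and it did so when control replicate 1 was left out.

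*Srsf10* encodes an SR protein that represses splicing in its dephosphorylated form, and *Srsf11* encodes an SR protein outside the classical set. *Srsf10* (chr4:135855747-135869908) was at 48.6, 43.0 and 47.0 FPKM in control and at 41.5, 49.4 and 43.3 FPKM in cKO libraries. *Srsf11* (chr3:158010473-158036639) was at 46.8, 37.8 and 42.1 FPKM in control and at 43.5, 47.6 and 43.2 FPKM in cKO libraries. Both pairs of groups overlapped. The log2 fold change was -0.046 for *Srsf10* (95% interval -0.26 to 0.16; adjusted p = 0.72), and it lay above the all-gene median when cKO replicate 1 was left out. It was 0.087 for *Srsf11* (95% interval -0.13 to 0.31; adjusted p = 0.51). Relative to the all-gene median, *Srsf11* and *Srsf5* turned negative under quantile normalization (-0.012 and -0.0079).

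The order of the members by level changed mainly through *Srsf1* and *Srsf9*. In the control group the means ran from *Srsf2* (185.8 FPKM) through *Srsf9* (135.5), *Srsf5* (128.0), *Srsf7* (126.1), *Srsf6* (72.8), *Srsf1* (60.6), *Srsf3* (48.4), *Srsf10* (46.2) and *Srsf11* (42.2) to *Srsf4* (12.7). The ranges of neighbours did not overlap only between *Srsf2* and *Srsf9*, between *Srsf7* and *Srsf6* and between *Srsf11* and *Srsf4*. In the cKO group *Srsf9* had the highest mean (174.6 FPKM) ahead of *Srsf2* (164.1 FPKM), with ranges that overlapped, although *Srsf9* was above *Srsf2* in each of the 3 libraries. *Srsf1* was the lowest member there, below *Srsf4* at 14.4 FPKM. Levels per gene length can be compared between genes only as far as the lengths used fit the transcripts present. For *Srsf7* the length used was 2279 bases, against 3550 in GENCODE M21.

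The summed level of the family and the share of each member in it were compared next. The 10 members summed to 858.2 ± 75.8 FPKM in the control group and 830.3 ± 42.4 FPKM in the cKO group (SD, n = 3 each), with an exact two-sided permutation p of 0.7. Without *Srsf1*, the other 9 summed to 797.6 ± 55.6 and 825.2 ± 42.6 FPKM (exact permutation p = 0.5). The smallest p that 3 against 3 libraries allow is 0.1. On means, *Srsf1* fell by 55.5 FPKM, *Srsf9* gained 39.2 FPKM and the 9 together gained 27.6 FPKM. The log2 difference of the sum of the 9 was 0.050 for FPKM and 0.031 for summed fragments scaled to the same library sizes (exact permutation p = 0.9). The difference in the sum of the 9 was smaller than its spread between libraries.

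*Srsf1* made up 9.03, 5.74 and 6.12% of the summed FPKM in control replicates 1, 2 and 3 and 0.626, 0.562 and 0.647% in the cKO replicates. *Srsf9* made up 12.7, 18.7 and 16.5% in control and 21.8, 20.6 and 20.7% in cKO replicates. The mean share of *Srsf1* differed by -6.35 percentage points and that of *Srsf9* by 5.08 points. As shares of summed fragments, which weight long genes more, these differences were -9.16 and 2.52 points, and that of *Srsf2* was -0.69 points with groups that overlapped (exact permutation p = 0.3), against -1.82 points for FPKM. *Srsf2* held 21.6 ± 1.03% in control and 19.8 ± 0.554% in cKO libraries, and *Srsf5* held 14.9 ± 0.471% and 16.6 ± 1.08%. For *Srsf1*, *Srsf2*, *Srsf4*, *Srsf5*, *Srsf6*, *Srsf9* and *Srsf11* the groups did not overlap, and the exact permutation p was 0.1, the smallest possible (0.143 after Benjamini-Hochberg adjustment over the 10 members). None of the shares could therefore pass the threshold in this design. Shares of one sum are not independent, since a lower *Srsf1* raises the others.

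**Figure D3:**
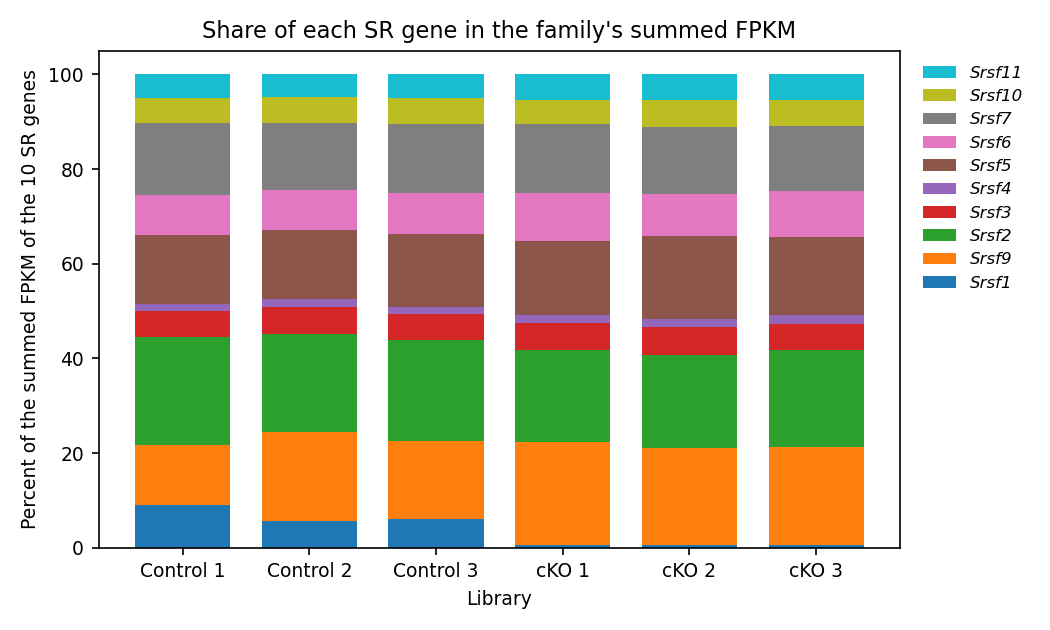
Percent of the summed FPKM of the 10 SR genes held by each gene (stacked bars) in the 3 control and 3 cKO libraries. The *Srsf1* segment shrinks from between 5.74 and 9.03% to below 0.65%, and the *Srsf9* segment is 20.6 to 21.8% in cKO libraries.

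Every member except *Srsf10* has at least 1 transcript annotated as a target of NMD in GENCODE M21. For *Srsf3*, an exon of 456 bases (chr17:29039454-29039909) occurs in an NMD transcript and overlaps no exon of a protein-coding transcript of the gene. The same holds for an exon of 460 bases in *Srsf7* (chr17:80204622-80205081) and one of 358 bases in *Srsf9* (chr5:115328347-115328704). Transcripts of other types were not compared. *Srsf1* has 7 transcripts, of which 3 are protein-coding, 2 are NMD targets and 2 retain an intron. *Srsf11* has 19 transcripts, of which 11 retain an intron. The deposited FPKM are 1 value per gene, so the inclusion of these exons, and the exons of *Srsf1* that gave the remaining 413 to 456 fragments, could not be read from them.

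Other genes of the SR protein pathway were counted in 6 lists, and 59 of their 62 genes were tested. Of these, 8 were called higher (13.6%) and 8 lower (13.6%), against 11.8% and 22.2% of all genes tested. The same shares of all genes stand beside the counts of each list below. The median log2 fold change was 0.061, and that over all genes was -0.0082.

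Among 8 tested kinases and import factors of SR proteins, 2 were called, both lower, with a median of -0.14. They were *Srpk1* and *Srpk2*, which phosphorylate RS domains in the cytoplasm. *Srpk1* was at 23.9, 22.3 and 21.2 FPKM in control and at 17.1, 18.0 and 17.8 FPKM in cKO libraries (log2 fold change -0.33, adjusted p = 0.013, limma). *Srpk2* was at 9.84, 12.7 and 10.3 FPKM in control and at 7.97, 6.77 and 7.03 FPKM in cKO libraries (-0.53, adjusted p = 0.014). In both genes all cKO libraries were below all control libraries, as in 28.6% of all genes tested. The call of *Srpk1* was kept in 13 of 15 alternatives and that of *Srpk2* in 12. Here and below, the 15 include median-of-ratios scaling, which had equal factors in all libraries and so nearly repeated the fit as designed.

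Of 16 SR-related genes tested, 3 were higher and 1 was lower, with a median of -0.054. *Srrm2*, a scaffold of nuclear speckles, was at 88.3 to 99.8 FPKM in control and 119.1 to 140.0 FPKM in cKO libraries (0.46, adjusted p = 0.0070). *Scaf8*, which binds the tail of RNA polymerase II, was at 32.9 to 34.6 and 42.0 to 43.2 FPKM (0.31, adjusted p = 0.0071; call kept in 14 of 15 alternatives). The third gene was *Son*, also of nuclear speckles and named after its value was seen (0.34, adjusted p = 0.012). *Arglu1*, whose protein is rich in arginine and glutamate, was at 31.9 to 36.9 and 26.4 to 27.9 FPKM (-0.34, adjusted p = 0.013), and its call was kept in 11 of 15 alternatives.

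Of 8 genes for splice site recognition, *Luc7l*, which is associated with the U1 particle, was the only gene called. It was at 20.2 to 23.7 FPKM in control and 15.7 to 16.4 FPKM in cKO libraries (-0.42, adjusted p = 0.0071), and the median of the list was 0.14. Of 7 genes of the hnRNP A/B and D type, whose best known member *Hnrnpa1* antagonises SRSF1 at splice sites, 2 were called, both higher, with a median of 0.15. *Hnrnpa1* was at 113.1, 123.0 and 121.0 FPKM in control and at 154.4, 144.9 and 151.6 FPKM in cKO libraries (0.33, adjusted p = 0.0085, call kept in 14 of 15 alternatives). All its cKO libraries were above all control libraries, as in 21.8% of all genes tested. *Hnrnpa0* was at 92.3 to 120.3 and 132.4 to 150.1 FPKM (0.41, adjusted p = 0.027), and its call was kept in 8 of 15 alternatives.

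Of 10 mRNA export genes tested, 2 were higher and 2 lower, with a median of 0.068. *Alyref*, an adaptor of the export receptor, was at 30.6 to 35.3 FPKM in control and 42.7 to 49.2 FPKM in cKO libraries (0.47, adjusted p = 0.0056). *Thoc2*, of the THO complex, was at 7.90 to 10.7 and 13.7 to 16.7 FPKM (0.64, adjusted p = 0.0085). *Nxt1*, the cofactor of NXF1, was at 54.6 to 58.4 and 34.4 to 37.6 FPKM (-0.62, adjusted p = 0.00050). *Thoc7*, also of the THO complex, was at 6.48 to 8.18 and 4.25 to 4.60 FPKM (-0.63, adjusted p = 0.0044; call kept in 14 of 15 alternatives). The called genes of this list thus included members of the THO complex in both directions.

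Of 10 NMD genes tested, 1 was higher and 2 were lower, with a median of 0.0011. *Smg1*, the kinase of UPF1, was at 35.6 to 42.1 FPKM in control and 45.2 to 53.3 FPKM in cKO libraries (0.37, adjusted p = 0.023). *Smg9*, which binds SMG1, was at 23.7 to 26.9 and 12.1 to 13.7 FPKM (-0.90, adjusted p = 0.00025). *Upf3a* was at 17.0 to 21.8 and 10.04 to 11.5 FPKM (-0.80, adjusted p = 0.0016). The calls of *Smg9* and *Upf3a* were kept in all 15 alternatives and that of *Smg1* in 10. The lower pachytene and spermatid marker levels accompanied these differences too, and their part in them was not tested.

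The genes whose pattern over the 6 libraries was most like that of *Srsf1*, by the root-mean-square difference of log2(FPKM + 1) deviations from the gene mean, were *4930469B13Rik* (0.12), *Cfap70* (0.13) and *Speer2* (0.14). *4930469B13Rik* was at 11.8, 8.10 and 8.26 FPKM in control and was listed at 0 in all 3 cKO libraries. *Cfap70* was at 18.7, 12.6 and 13.6 FPKM in control and at 0.846, 0.732 and 0.767 FPKM in cKO libraries. *Speer2* was at 10.2, 6.94 and 8.14 FPKM in control and at 0, 0 and 0.0565 FPKM in cKO libraries. For genes at or near 0, the added 1 sets the depth of the fall on this scale. The likeness to *Srsf1*, which kept 8.36% of its control level, therefore rests in part on the added 1.

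**Figure D4:**
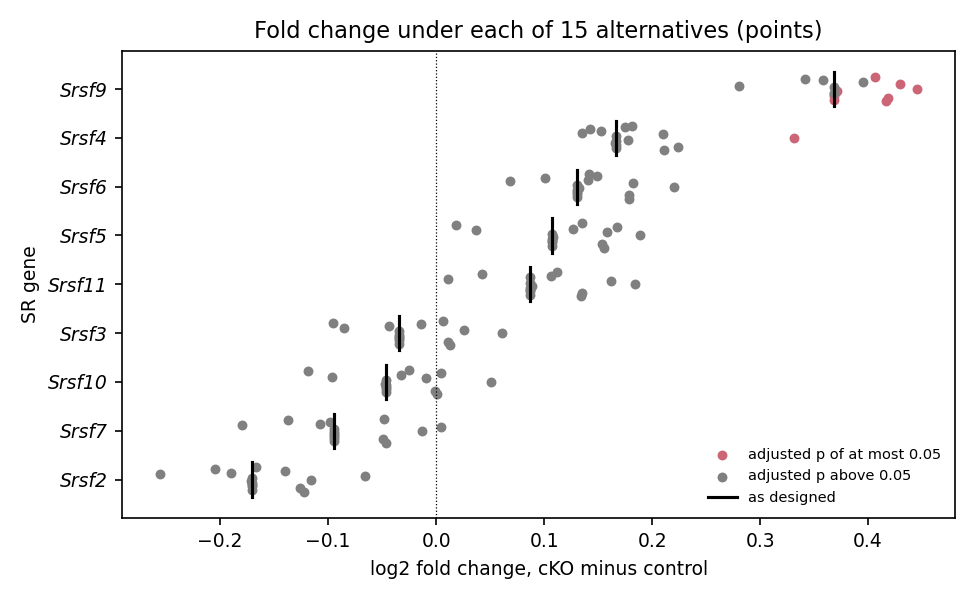
Log2 fold change, cKO minus control, of the 9 SR genes other than *Srsf1* as designed (black line) and under each of 15 alternatives (points, red where the adjusted p is at most 0.05). *Srsf9* lies between 0.28 and 0.45 with 9 red points, among them median-of-ratios scaling, which nearly repeated the fit as designed. *Srsf4* has 1 red point, and *Srsf3*, *Srsf7* and *Srsf10* lie on both sides of 0, in part through settings that move the median of all genes.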

How the data were processed

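The authors deposited 1 table of FPKM for 54532 genes with a column for each of 6 libraries. Per the labels, reads were aligned with HISAT2 2.0.5 to mm10; the counting tool is not given in the sources used here. After multiplication by gene length, 100% of the values above 0 were whole multiples of one step per library (tolerance 0.01), from which fragment counts were recovered. The FPKM denominator was 0.971 to 1.05 times their sum, and the deposited libraries were already equal on a median-of-ratios scale.

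Libraries were grouped by labelled genotype. The 15451 genes whose mean FPKM reached 1 were tested on log2(FPKM + 1) by limma-trend (limma 3.58.1, R 4.3.3), with Benjamini-Hochberg adjustment over all genes tested and a threshold of 0.05. Fold changes on this scale understate those of low genes. Single values per library were compared by exact two-sided permutation tests. Sequences, transcripts and exon overlaps came from GENCODE M21 (GRCm38). Its length of exons equalled the table's for every member except *Srsf7* (3550 bases, against 2279 in the table). Identity was computed on coding bases with Biopython 1.88. The limma fit was tested on simulated data whose changes were larger than that of *Srsf9*, so its call was not covered.

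The members were selected by gene name only, but the names and the lists were chosen with earlier results of these data known. Named genes were the 10 members, up to 2 called genes per direction and list by adjusted p, and the 3 genes most like *Srsf1*; *Son*, marker genes and genes overlapping members were named outside this rule. *Ddx39a* was not matched, and *Srpk3* and *Srsf12* were below the FPKM minimum. Alternatives were a pseudocount of 0.1, no filter or a mean of at least 5 FPKM, median-of-ratios scaling, quantile normalization, FPKM without the authors' factor, eBayes without trend, the replicate number as a block, limma-voom on the fragments, the sum of fragments, and leaving out each library.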

Additional observations from a re-analysis of the deposited data

How the results depend on the processing

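The fall of *Srsf1* was called in all 15 alternatives, with a log2 fold change between -3.50 and -3.03. Among them, median-of-ratios scaling nearly repeated the fit as designed. The number of SR members called higher was 0 without a filter on FPKM and 0 with the replicate number as a block, although 2 and 1 members were higher at an unadjusted p under 0.05 in limma; it was 2 under quantile normalization and 0 to 1 when each library was left out. The adjusted p of *Srsf9* was 0.05002 without a filter and 0.059 with the block. Quantile normalization put the all-gene median at 0.20 on the log2 scale. Relative to it, *Srsf9* was at 0.25 and *Srsf4* at 0.14, and *Srsf3* and *Srsf10*, which turned positive, were at -0.14 and -0.15. The sum of the 9 members other than *Srsf1* differed by -0.075 on the log2 scale when fragments were summed without scaling to library size, and the control libraries held more fragments. Divided by the FPKM denominators or by total fragments, both chosen after seeing the data, it was 0.031 and 0.080. It was 0.050 for FPKM, 0.13 under quantile normalization (exact permutation p = 0.1), 0.098 without the authors' factor and -0.00060 to 0.1001 when each library was left out. By fragments the shares of *Srsf1*, *Srsf9*, *Srsf2*, *Srsf7*, *Srsf11*, *Srsf6*, *Srsf3* and *Srsf10* differed by -9.16, 2.52, -0.69, 0.083, 1.55, 1.91, 0.60 and 0.42 percentage points, against -6.35, 5.08, -1.82, -0.50, 0.48, 1.13, 0.042 and -0.0055 for FPKM. Genes called lower numbered 1950 at a mean of at least 5 FPKM, with fewer genes tested. Genes called higher numbered 1821 as designed, 4856 under quantile normalization, 2482 with limma-voom, 891 with the block and 969 to 1767 when each library was left out. Same-numbered control and cKO libraries deviated with correlations of -0.0014, -0.11 and 0.016, so the replicate numbers were not treated as pairs. The cause of these shifts was not tested.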
